A study of Mus musculus with 12 samples.

Results

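The 9 genes described here are the ligands Vegfa, Vegfb, Vegfc and Pgf, the receptors Flt1 (VEGFR1), Kdr (VEGFR2) and Flt4 (VEGFR3), and the co-receptors Nrp1 and Nrp2 of the vascular endothelial growth factor (VEGF) system. They were taken by gene symbol from 45664 rows of a table of raw counts. All 9 were in the table, and all 9 passed the filter on low counts that left 20691 genes. The counts are bulk RNA-seq of whole embryonic mouse hearts, 1 library per heart. The groups were E14.5 KO, E14.5 WT, E13.5 KO and E13.5 WT, named by embryonic day and genotype, with 3 hearts in each of the 4 groups. Per the labels, KO is an endothelial disruption of Ino80, a chromatin remodelling ATPase, made with Tie2. WT hearts carry no disruption by their label. The sources used here do not name the strain, the exons deleted or the control genotype in full. Tie2 drivers are active in endothelium, in endocardium and also in blood cells, so a whole heart holds both targeted cells and untargeted cells such as cardiomyocytes. All E13.5 hearts came from litter 1, and E14.5 hearts from litters 2 (KO 2 and 4, WT 7 and 8) and 3 (KO 1, WT 7.2), so stage and litter cannot be told apart.

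VEGF-A, made by myocardium and epicardium among other tissues, binds Flt1 and Kdr on endothelial cells. Kdr carries most of the mitogenic signal, while Flt1 has a weak kinase and, as a soluble form, traps ligand. VEGF-B and PlGF (Pgf) bind Flt1. VEGF-C binds Flt4, the receptor known for lymphatic growth and also found on sprouting blood vessels. Neuropilins bind VEGFs beside the receptors and also class 3 semaphorins. In the developing heart this system is known for its part in coronary vessel growth and in valve formation.

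Libraries held 46556032 to 182545647 counts, and Pgf, the least abundant of the 9 genes, had 212 to 908 counts per heart. Its counting error was 4.91 to 6.22% in the 4 groups, against a spread between hearts of 5.30 to 12.0% (SD over mean), so that in E13.5 hearts the counting error was about as large as the spread. For the other 8 genes the counting error was 0.697 to 2.91%. Ino80 itself was at 27.0, 29.5 and 31.9 CPM (counts per gene scaled to the library total by edgeR) in E14.5 KO hearts, against 33.9, 31.4 and 30.8 CPM in E14.5 WT hearts. It was at 29.6 CPM in each of the 3 E13.5 KO hearts, against 36.6, 33.8 and 30.7 CPM in E13.5 WT hearts. Reads of the deleted and of the remaining exons cannot be separated in these gene counts. Cardiomyocyte markers averaged 10.3 to 10.8 log2 CPM in all 12 hearts, as the tissue label says. Pan-endothelial markers (20 genes, none of the 9 among them) averaged 5.81 to 5.997 log2 CPM in E14.5 KO hearts and 5.72 to 5.84 in E14.5 WT hearts. They averaged 5.67 to 5.68 log2 CPM in E13.5 KO hearts and 5.80 to 5.82 in E13.5 WT hearts. Macrophage and leukocyte markers (14 genes) averaged -0.04 log2 CPM in E14.5 KO 2 and 2.52 to 2.67 in the other E14.5 KO hearts, against 2.26 to 2.36 in E14.5 WT hearts. They averaged -0.83 log2 CPM in E13.5 KO 5 and 0.98 to 1.68 in the other E13.5 KO hearts, against 2.40 to 2.48 in E13.5 WT hearts. In bulk hearts, fewer cells of a type and less RNA per cell cannot be told apart. Y-linked genes were expressed in E14.5 KO 4, E14.5 WT 7.2, E13.5 KO 3, E13.5 KO 7 and E13.5 WT 2, and not in the other 7 hearts.

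Promoter sequence is shown for the 4 genes on which the results turn: the receptors Flt1, Kdr and Flt4, whose levels correlated over the hearts, and Nrp2, which rose between the stages. Each is the 250 bases upstream of the gene's start in RefSeq on GRCm38.p6, on the gene's own strand. Capitals mark the GC box GGGCGG on either strand. None of the bases in capitals belongs to another motif searched.
Flt1: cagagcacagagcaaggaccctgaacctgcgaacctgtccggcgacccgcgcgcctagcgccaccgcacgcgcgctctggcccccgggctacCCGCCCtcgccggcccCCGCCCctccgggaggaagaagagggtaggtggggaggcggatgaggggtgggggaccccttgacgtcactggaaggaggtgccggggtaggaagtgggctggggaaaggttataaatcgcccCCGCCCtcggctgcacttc
Kdr: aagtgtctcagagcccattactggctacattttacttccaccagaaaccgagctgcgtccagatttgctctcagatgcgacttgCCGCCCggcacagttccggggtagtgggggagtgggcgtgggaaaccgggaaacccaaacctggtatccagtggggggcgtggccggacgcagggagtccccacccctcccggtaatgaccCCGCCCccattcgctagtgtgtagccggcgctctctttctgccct
Flt4: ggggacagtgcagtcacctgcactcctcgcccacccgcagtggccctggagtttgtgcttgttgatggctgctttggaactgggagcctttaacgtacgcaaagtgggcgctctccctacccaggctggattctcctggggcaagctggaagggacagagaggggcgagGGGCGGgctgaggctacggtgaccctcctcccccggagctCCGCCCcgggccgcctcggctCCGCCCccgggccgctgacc
Nrp2: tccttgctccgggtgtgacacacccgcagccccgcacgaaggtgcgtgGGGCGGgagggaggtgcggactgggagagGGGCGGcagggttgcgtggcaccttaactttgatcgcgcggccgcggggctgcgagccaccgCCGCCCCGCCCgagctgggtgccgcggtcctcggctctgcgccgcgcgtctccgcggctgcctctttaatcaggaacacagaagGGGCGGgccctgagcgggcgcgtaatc

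These windows lie at chr5:147726012-147726261 for Flt1 (minus strand), chr5:75978456-75978705 for Kdr (minus strand), chr11:49609429-49609678 for Flt4 (plus strand) and chr1:62703067-62703316 for Nrp2 (plus strand). All 9 genes had at least 1 GC box, which 32.7% of 32851 RefSeq promoter windows of this length held; Nrp2 had 5, Flt1 and Flt4 had 3 each, and Kdr had 2. The ETS core, searched as CGGAAG and AGGAAG on both strands, matched at 2 places in Flt1 and at none in Kdr, Flt4 or Nrp2, and 39.2% of all windows held it. Hypoxia response cores, ACGTG or GCGTG, matched at 2 places each in Kdr and Nrp2 and at 1 in Flt1, with none in Flt4 or Vegfa, and 38.6% of all windows held one. Flt1 had the cAMP response element TGACGTCA, which 1.55% of all windows held, and the letters TATAAA, held by 12.4%. Kdr had the RBPJ core GTGGGAA, held by 5.42%. A match describes the letters and is not evidence of binding.

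Per length of exon, Vegfb was the most abundant of the 9 genes, at 86.6 ± 8.69 CPM per kb over the 12 hearts (SD). Vegfa (24.7 ± 3.54 CPM per kb) and Nrp1 (23.8 ± 1.74 CPM per kb) came next and did not differ beyond their spread. Kdr followed at 13.6 ± 1.69 and Vegfc at 9.06 ± 0.82 CPM per kb, and over the 12 hearts neither range overlapped that of its neighbours in this order. Flt1 (4.82 ± 0.61), Flt4 (4.34 ± 0.70) and Nrp2 (3.53 ± 0.68 CPM per kb) overlapped one another. Pgf was lowest at 1.67 ± 0.22 CPM per kb. Where the longest transcript was taken as the length, Nrp1 stood above Vegfa, Flt1 on average just above Vegfc, and Nrp2 on average above Flt4. Among the receptors, Kdr was above Flt1 and Flt4 in every heart by either length.

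**Figure D1:**
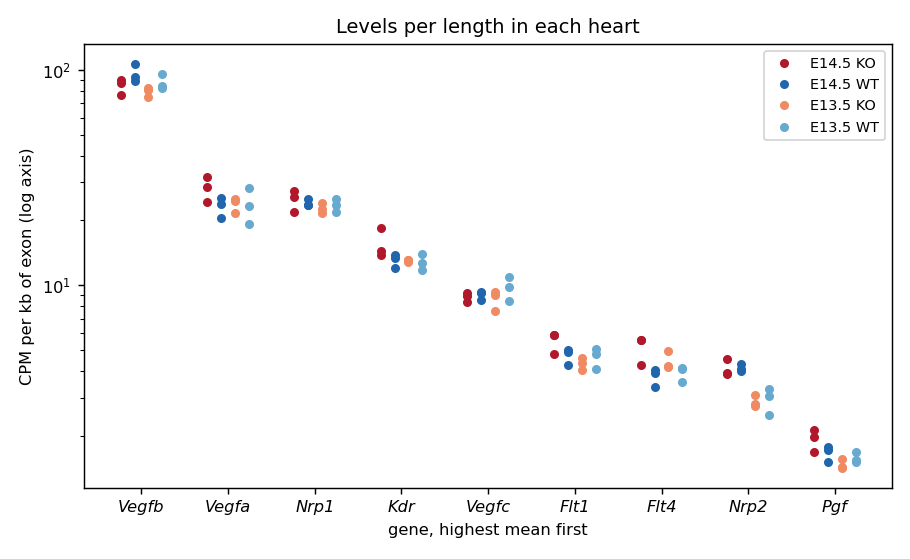
Level of each of the 9 genes per length in each heart, in CPM per kb of the union of its exons on a log axis, ordered by mean; each point is 1 heart, coloured by group. Vegfb is highest in all 12 hearts, Vegfa and Nrp1 overlap, and Pgf is lowest.

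The first question is whether the endothelial disruption of Ino80 moved VEGF genes. No VEGF gene passed the threshold between KO and WT hearts at either stage. The receptor Flt4 came closest: its level was above WT in all 3 KO hearts at both stages. Flt1 and Kdr were higher on average in KO hearts at E14.5 but overlapped WT, and the 4 ligands and both neuropilins overlapped at both stages. In edgeR's quasi-likelihood test, 0 of 9 had an adjusted p under 0.05 at E14.5, where 0.222% of all genes did, and 0 of 9 at E13.5, where 0.106% did. At an unadjusted p under 0.05 there were 3 at E14.5 (Flt1, Kdr and Flt4), against 9.59% of all genes, and 0 at E13.5, against 10.3%. DESeq2 called 1 at E14.5 (Flt4), against 1.63% of all genes, and 0 at E13.5, against 1.48%. With the stages averaged the count was 0 of 9, against 1.42% of all genes, with 2 at an unadjusted p under 0.05 (Flt4 and Vegfb), against 14.7%, and 1 called by DESeq2 (Flt4), against 4.51%.

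Flt4, the VEGF-C receptor, was at 45.9, 35.0 and 46.0 CPM in E14.5 KO hearts 2, 4 and 1, against 33.5, 32.4 and 27.8 CPM in E14.5 WT hearts 8, 7 and 7.2. It was at 35.0, 41.0 and 34.3 CPM in E13.5 KO hearts 3, 5 and 7, against 34.2, 33.9 and 29.5 CPM in E13.5 WT hearts 1, 4 and 2. The groups did not overlap at either stage, though at E13.5 the lowest KO heart and the highest WT heart were nearly level. Of all genes, 6.81% were above WT without overlap at E14.5, 8.44% at E13.5 and 1.75% at both. The log2 fold change of Flt4 was 0.44 ± 0.12 at E14.5 (SE, adjusted p = 0.177, edgeR) and 0.17 ± 0.12 at E13.5 (adjusted p = 0.623), where it was 0.09 ± 0.12 without E13.5 KO 5 (adjusted p = 0.931). Averaged over the stages it was 0.31 ± 0.08, with a 95% interval of 0.13 to 0.48 and an adjusted p of 0.0882, which misses the threshold.

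In each of the 4 groups Flt4 was lower in the hearts that expressed Y-linked genes than in those that did not. At E14.5 the hearts without it were at 45.9 and 46.0 CPM in KO and at 33.5 and 32.4 CPM in WT, while those with it were at 35.0 CPM in KO and 27.8 CPM in WT. At E13.5 the hearts without it were at 41.0 CPM in KO and at 34.2 and 33.9 CPM in WT, while those with it were at 35.0 and 34.3 CPM in KO and 29.5 CPM in WT. Every KO heart was above every WT heart of its stage. The same therefore holds among hearts alike in Y-linked expression, and this is no separate result. The share of all genes lower in each group in hearts with Y-linked expression was not computed. With Y-linked expression as a covariate, Flt4 passed the threshold at E14.5 (0.41 ± 0.06, adjusted p = 0.0187, edgeR) and averaged over stages (0.34 ± 0.04, adjusted p = 0.00324), but not at E13.5 (0.27 ± 0.06, adjusted p = 0.175). In that setting 59 of 20691 genes were called at E14.5, 331 averaged over stages and 9 at E13.5. Without the covariate these counts were 46, 293 and 22. Averaged over stages Flt4 also passed without E14.5 KO 4 (0.36 ± 0.07, adjusted p = 0.0270). Without E13.5 KO 5 and E14.5 KO 2, the KO heart lowest in macrophage markers at each stage, Flt4 was 0.23 ± 0.09 (adjusted p = 0.376). Neither of these 2 hearts expressed Y-linked genes, and without them the genes called over the whole set fell from 293 to 63.

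Of 6 lymphatic markers none was called in KO against WT, 1 was above 0 averaged over stages, and their median log2 fold change was -0.22. Taken relative to the mean of the 20 pan-endothelial markers, Flt4 stood at -0.50 ± 0.17 log2 units in E14.5 KO hearts and -0.82 ± 0.10 in E14.5 WT hearts (SD, n = 3 each). It stood at -0.48 ± 0.14 in E13.5 KO hearts and -0.79 ± 0.13 in E13.5 WT hearts. With the pan-endothelial level as a covariate the averaged log2 fold change was 0.32 ± 0.07 (adjusted p = 0.0505), while the value at E14.5 was 0.25 ± 0.13 (adjusted p = 0.523) and that at E13.5 was 0.40 ± 0.14 (adjusted p = 0.440). The markers themselves moved with genotype. Averaged over stages Pecam1 (-0.47), Sox7 (-0.26) and Cldn5 (-0.85) were called lower in KO and Eng (0.30) higher, against 1.42% of all genes called. At E13.5 the mean of the 20 markers was 5.67 to 5.68 log2 CPM in KO and 5.80 to 5.82 in WT. There the fit can hardly tell this covariate from genotype, and these values are not a measure per endothelial cell.

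**Figure D2:**
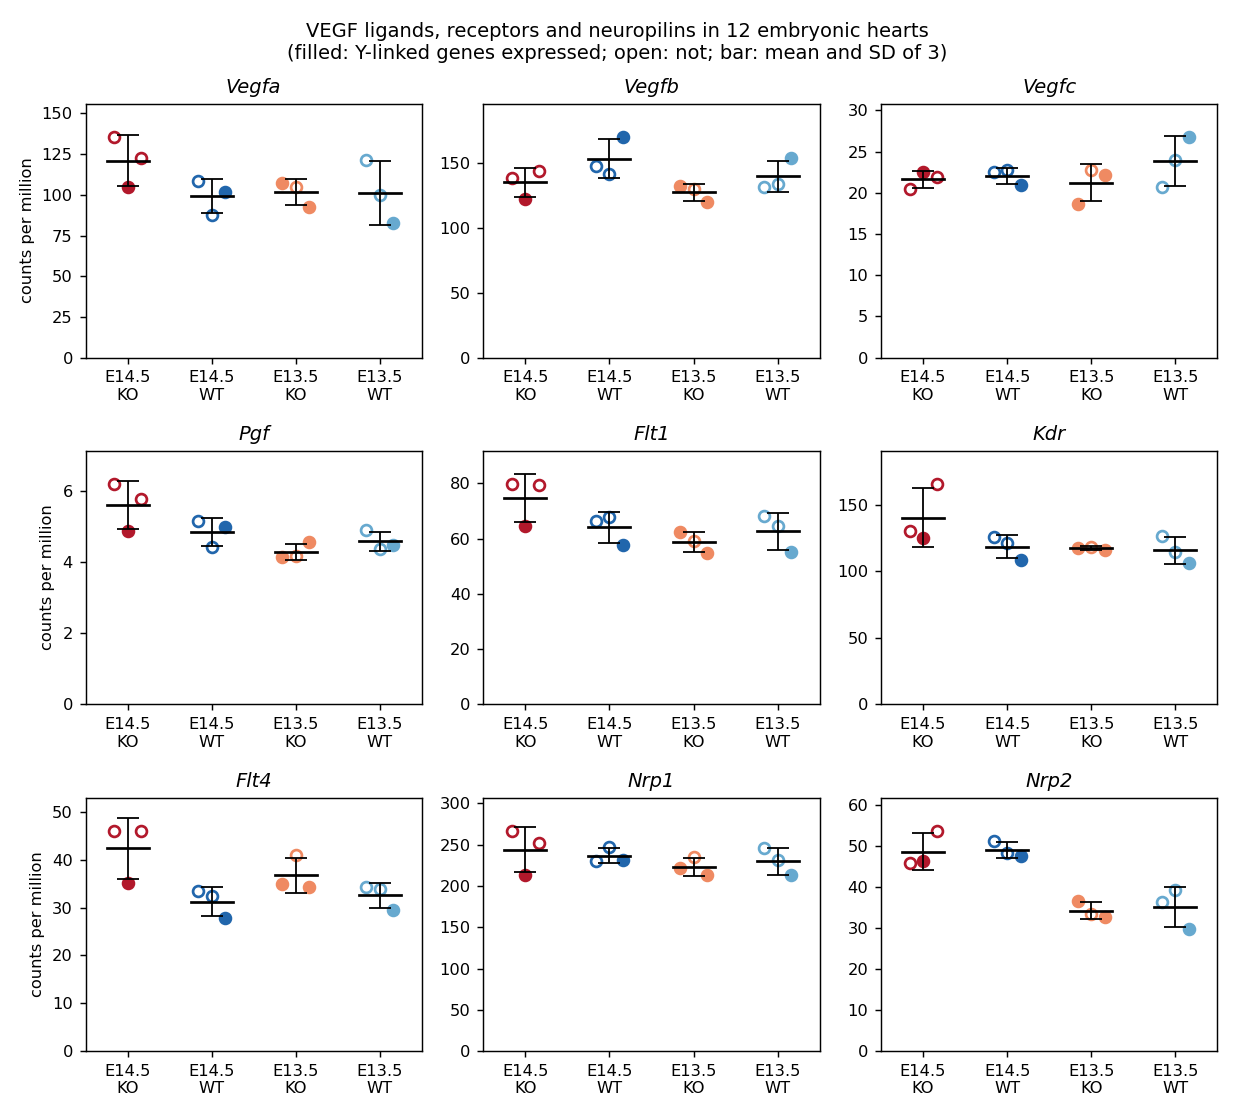
CPM of the 9 genes in each heart, with the mean and SD of 3 hearts per group; filled points are hearts that expressed Y-linked genes and open points those that did not. Flt4 is above WT in all KO hearts at both stages, and Nrp2 is higher in all E14.5 hearts than in all E13.5 hearts.

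Kdr, the main signalling receptor, was at 130, 125 and 166 CPM in E14.5 KO hearts 2, 4 and 1, against 126, 121 and 109 CPM in E14.5 WT hearts. The groups overlapped, and the highest value was that of KO 1. The log2 fold change was 0.24 ± 0.10 at E14.5 (adjusted p = 0.437, edgeR) and 0.02 ± 0.10 at E13.5 (adjusted p = 0.969). Without KO 1 the E14.5 value of Kdr was 0.11 ± 0.08 (adjusted p = 0.648). With the pan-endothelial level as a covariate it was 0.03 ± 0.09 (adjusted p = 0.952), and at E13.5 Kdr was 0.27 ± 0.10 with that covariate (adjusted p = 0.460). Flt1, the decoy and signalling receptor, was at 79.9, 64.7 and 79.5 CPM in E14.5 KO hearts, against 66.5, 67.9 and 57.6 CPM in E14.5 WT hearts. KO 4, the 1 E14.5 KO heart with Y-linked expression, lay within the WT range. Its log2 fold change was 0.22 ± 0.10 at E14.5 (adjusted p = 0.505, edgeR) and -0.09 ± 0.10 at E13.5 (adjusted p = 0.778). With the pan-endothelial covariate the E14.5 value of Flt1 was 0.07 ± 0.12 (adjusted p = 0.893), and it was 0.11 ± 0.12 without litter 3 (adjusted p = 0.801). Of the 20 pan-endothelial markers 15 were above 0 in KO against WT at E14.5, with a median of 0.19, 10 higher and 2 lower at an unadjusted p under 0.05 (9.59% of all genes) and none called. At E13.5, 6 were above 0, with a median of -0.09 and 2 called lower, against 0.106% of all genes called in either direction. Soluble and membrane-bound Flt1 are pooled in these gene counts.

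Among the ligands, Vegfa was at 136, 105 and 123 CPM in E14.5 KO hearts, against 109, 87.8 and 102 CPM in E14.5 WT hearts, a log2 fold change of 0.28 with a 95% interval of -0.01 to 0.58. At E13.5 it was 0.00, with an interval of -0.29 to 0.30. Vegfb was the ligand with the narrowest interval: averaged over stages it was -0.16 ± 0.06 (adjusted p = 0.259, edgeR). Its level was 135 ± 11.3 CPM in E14.5 KO hearts and 153 ± 15.0 CPM in E14.5 WT hearts, and 127 ± 6.42 CPM in E13.5 KO hearts and 140 ± 12.0 CPM in E13.5 WT hearts (SD, n = 3 each). Vegfc averaged -0.10 (95% interval -0.25 to 0.06) and Pgf 0.06 (-0.14 to 0.25). The neuropilins gave the closest values to 0, with Nrp1 at 0.00 (-0.13 to 0.13) and Nrp2 at -0.02 (-0.17 to 0.12).

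**Figure D3:**
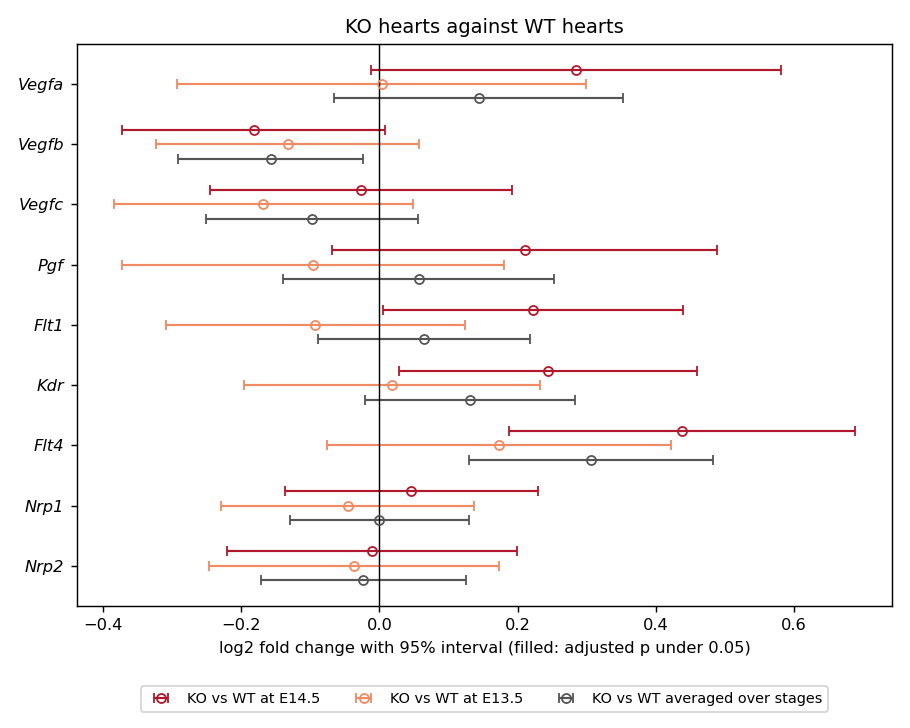
Log2 fold change of KO over WT hearts for the 9 genes at E14.5, at E13.5 and averaged over stages, with 95% intervals of the quasi-likelihood fit. Flt4 has the highest value in each comparison (0.44, 0.17 and 0.31), and no point is filled because none had an adjusted p under 0.05.

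Whether the KO effect itself differed between the stages was tested as an interaction. In edgeR 0 of 9 genes were called, as were 0% of all genes, and DESeq2 called 0 of the 9 and 0.00967% of all genes. At an unadjusted p under 0.05 there was 1, Flt1 (0.31 ± 0.14, adjusted p = 0.997), against 3.61% of all genes. The difference (E14.5 minus E13.5) was above 0 for 8 of 9 genes, Vegfb being the exception, with a median of 0.23 log2 units against -0.01 over all genes. All 20 pan-endothelial markers had the same sign in this comparison, with a median of 0.26, and none was called. With their level as a covariate, the differences of Flt1 (-0.03), Kdr (-0.25), Flt4 (-0.15), Nrp1 (-0.11) and Nrp2 (-0.20) were below 0, as was that of Vegfb (-0.11), while those of Vegfa (0.29), Pgf (0.24) and Vegfc (0.06) were above 0. None was called.

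The second question is how the VEGF genes moved between E13.5 and E14.5. Nrp2, the neuropilin of veins and lymphatic vessels that binds VEGF-C, rose in both genotypes and was the single VEGF gene that edgeR called in either, while DESeq2 also called Flt1 and Pgf in KO. It was at 45.8, 46.4 and 53.8 CPM in E14.5 KO hearts, against 36.7, 33.4 and 32.8 CPM in E13.5 KO hearts. It was at 51.3, 48.3 and 47.5 CPM in E14.5 WT hearts, against 36.3, 39.3 and 29.8 CPM in E13.5 WT hearts. All 6 E14.5 hearts were above all 6 E13.5 hearts. Of all genes, 12.1% were higher at E14.5 without overlap in KO and 14% in WT, and the share for all 6 against all 6 was not computed. The log2 fold change was 0.51 ± 0.10 in KO (adjusted p = 0.0202, edgeR) and 0.48 ± 0.10 in WT (adjusted p = 0.0262), and the difference between them was 0.03 ± 0.14. The edgeR count of 1 of 9 compares with 3.74% of all genes called in KO (2.11% higher at E14.5) and 4.04% in WT (2.08% higher).

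In WT, Nrp2 missed the threshold with litter as replicate block (0.45 ± 0.10, adjusted p = 0.0521), without litter 3 (0.50 ± 0.10, adjusted p = 0.0664), or without E13.5 WT 1, 4 or 2 or E14.5 WT 7.2 (adjusted p = 0.0919, 0.0609, 0.0582 and 0.104). In KO it missed the threshold without E13.5 KO 5, E13.5 KO 7 or E14.5 KO 1 (adjusted p = 0.0711, 0.0829 and 0.0652), without E13.5 KO 5 and E14.5 KO 2 together (0.0803), and with the pan-endothelial level as a covariate (0.31 ± 0.17, adjusted p = 0.460). With that covariate no gene at all was called in this comparison, against 774 without it, so the lost call is not particular to Nrp2.

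Some mural and lymphatic markers moved with Nrp2 between the stages and others did not. The mural list (7 genes) averaged 5.14 to 5.89 log2 CPM in E14.5 KO hearts and 4.63 to 4.999 in E13.5 KO hearts. It averaged 5.29 to 5.66 in E14.5 WT hearts and 4.75 to 4.91 in E13.5 WT hearts. Rgs5, a pericyte gene, was called in KO (2.40 ± 0.31, adjusted p = 0.00917, edgeR) and in WT (2.499 ± 0.31, adjusted p = 0.0150), and so was Mmrn1, a lymphatic gene (1.03 ± 0.21, adjusted p = 0.0248 in KO and 1.29 ± 0.21, adjusted p = 0.0188 in WT). In KO, 2 of 7 mural and 1 of 6 lymphatic markers rose, and in WT 1 of 7 and 1 of 6. Of all genes, 2.11% were called higher in KO and 2.08% in WT. Of the mural markers 5 of 7 were above 0 in KO and 6 of 7 in WT, and of the lymphatic markers 3 of 6 and 4 of 6. Tagln, a smooth muscle gene, ran the other way: it was at 65.1, 77.6 and 52.5 CPM in E14.5 KO hearts, against 118, 153 and 85.1 CPM in E13.5 KO hearts (-0.87 ± 0.28, adjusted p = 0.118), and at 52.1, 39.8 and 38.9 CPM in E14.5 WT hearts, against 109, 96.5 and 57.0 CPM in E13.5 WT hearts (-1.01 ± 0.28, adjusted p = 0.0729). With the pan-endothelial level as a covariate neither Rgs5 (1.76 ± 0.53, adjusted p = 0.217) nor Mmrn1 (0.80 ± 0.41, adjusted p = 0.410) was called in KO. That setting called no gene at all in this comparison, so these lost calls are not particular to the 2 genes. Mmrn1 in KO was also not called without litter 3 (0.84, adjusted p = 0.0556). The call of Rgs5 was lost in KO without E13.5 KO 7 (0.0543) and in WT without E13.5 WT 1 or WT 4 (0.0785 and 0.0609). That of Mmrn1 was lost in KO without E14.5 KO 1, E13.5 KO 3 or E13.5 KO 7 (0.0749, 0.0860 and 0.103) and in WT without E14.5 WT 7.2 or E13.5 WT 1 (0.0870 and 0.0840). The lymphatic list averaged 2.94 to 3.46 log2 CPM in E14.5 KO hearts and 2.39 to 2.84 in E13.5 KO hearts, and 3.35 to 3.79 in E14.5 WT hearts and 2.55 to 3.04 in E13.5 WT hearts. The part of these cells in the level of Nrp2 was not tested.

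The other 8 genes were not called between stages by edgeR. In KO hearts all 9 were above 0, and the median of the 9 was 0.25, against 0.00 over all genes, on the log2 scale. Pgf, Flt1 and Kdr separated the stages without overlap there, as did 12.1% of all genes upward. Flt1 was at 79.9, 64.7 and 79.5 CPM in E14.5 KO hearts, against 62.2, 59.2 and 54.9 CPM in E13.5 KO hearts (0.35 ± 0.10, adjusted p = 0.0741, edgeR). It passed with DESeq2 (adjusted p = 0.0257), which called 8.85% of all genes here, and without E14.5 KO 4 (0.44 ± 0.10, adjusted p = 0.0291). Pgf was at 6.22, 4.89 and 5.78 CPM in E14.5 KO hearts, against 4.15, 4.19 and 4.56 CPM in E13.5 KO hearts (0.39 ± 0.13, adjusted p = 0.111), and passed with DESeq2 (adjusted p = 0.0404). Kdr was 0.26 ± 0.10 (adjusted p = 0.162). In WT hearts, where 14% of all genes were higher at E14.5 without overlap, Nrp2 alone of the 9 was, and the median was 0.03 against 0.00 over all genes. The WT log2 fold changes were 0.03 for Flt1 (95% interval -0.19 to 0.25), 0.03 for Kdr (-0.18 to 0.25) and -0.06 for Flt4 (-0.31 to 0.19).

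Pan-endothelial markers moved with the receptors in KO hearts: 16 of 20 were above 0 between the stages, 6 rose, and their median was 0.24, against 0.00 in WT with 1 up and 3 down. Of all genes, 2.11% were called higher in KO. In WT 2.08% were called higher and 4.04% in either direction. With the pan-endothelial level as a covariate, Flt1 in KO was 0.04 ± 0.17 (adjusted p = 0.944, edgeR) and Kdr was -0.15 ± 0.14 (adjusted p = 0.666), in a setting that called no gene at all.

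**Figure D4:**
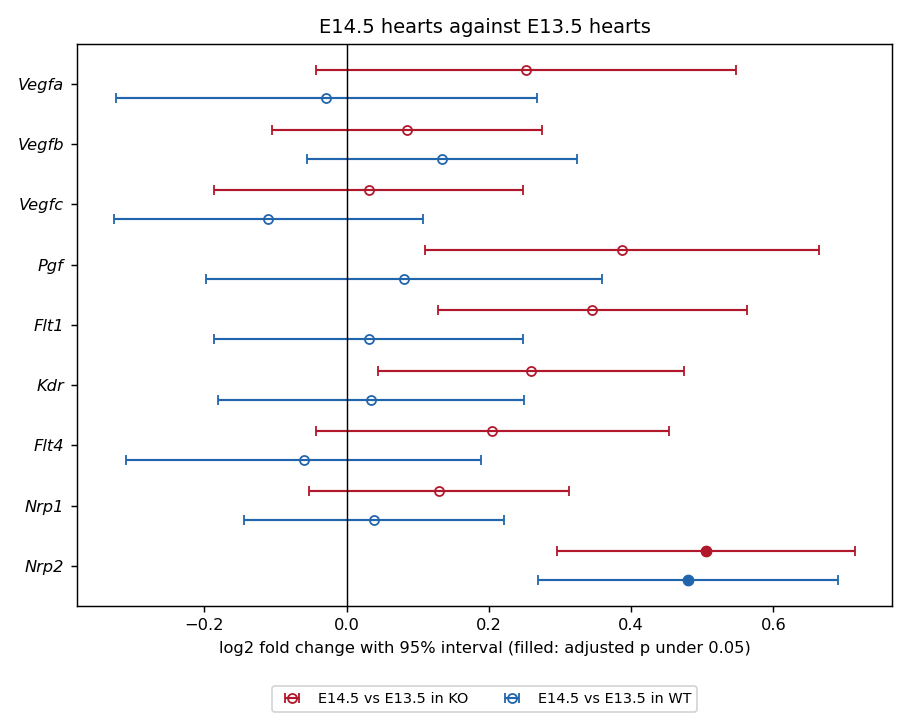
Log2 fold change of E14.5 over E13.5 hearts for the 9 genes in KO and in WT, with 95% intervals; filled points had an adjusted p under 0.05. Nrp2 is filled in both genotypes (0.51 in KO and 0.48 in WT), and all 9 points of KO lie above 0.

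Over the 12 hearts, 8 of 36 pairs of the 9 genes correlated with an adjusted p under 0.05 (permutation test of Pearson's r of log2 CPM, Benjamini-Hochberg over the 36 pairs), all 8 with a positive r. Among these 8, only Flt1 with Kdr and Flt1 with Nrp1 also passed by Spearman's rho. Vegfa with Flt1, Flt4 and Pgf had r = 0.77, 0.72 and 0.70, and for rho an adjusted p of 0.103, 0.113 and 0.189 (permutation). Pgf and Flt1 had r = 0.73, and 0.22 without the 2 hearts farthest from the median of Pgf. The closest pair was Flt1 and Kdr, with r = 0.83 (p = 9e-05, adjusted p = 0.00324, permutation) and Spearman's rho = 0.89 (permutation p = 0.00028, adjusted p = 0.0101). Without the 2 hearts farthest from the median of Flt1, r was 0.80. Within E14.5 it was 0.81 and within E13.5 it was 0.74. Flt1 and Nrp1 had r = 0.83 (permutation p = 0.00092, adjusted p = 0.0166) and rho = 0.81 (permutation p = 0.00194, adjusted p = 0.0233), with 0.65 without the 2 farthest hearts, 0.75 within E14.5 and 0.86 within E13.5. Kdr and Flt4 had r = 0.77 (permutation p = 0.00143, adjusted p = 0.0172) and rho = 0.66 (permutation p = 0.0232, adjusted p = 0.113), with 0.63 without the 2 farthest hearts, 0.84 within E14.5 and 0.59 within E13.5. Flt1 and Flt4 had r = 0.72 (permutation p = 0.00916, adjusted p = 0.0471) and rho = 0.44 (permutation p = 0.153), and r fell to 0.23 without the 2 farthest hearts, so that over the 12 hearts this relation rests on those hearts. It was 0.97 within E14.5 and 0.21 within E13.5. Vegfa and Vegfc had the lowest r of the 36 pairs, -0.63, which missed the threshold (permutation p = 0.0295, adjusted p = 0.0708), with -0.34 without the 2 farthest hearts, -0.63 within E14.5 and -0.74 within E13.5. These hearts share litters, groups and library scaling, and the permutation moved hearts freely across groups and litters. After subtracting group means r was 0.72 for Flt1 and Kdr, 0.84 for Flt1 and Nrp1, and 0.68 for Kdr and Flt4. It was then 0.85 for Flt1 and Flt4, -0.76 for Vegfa and Vegfc, and lowest of the 8 pairs for Pgf and Flt1 (0.34, against 0.73 before). The share of all gene pairs that would pass was not computed.

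**Figure D5:**
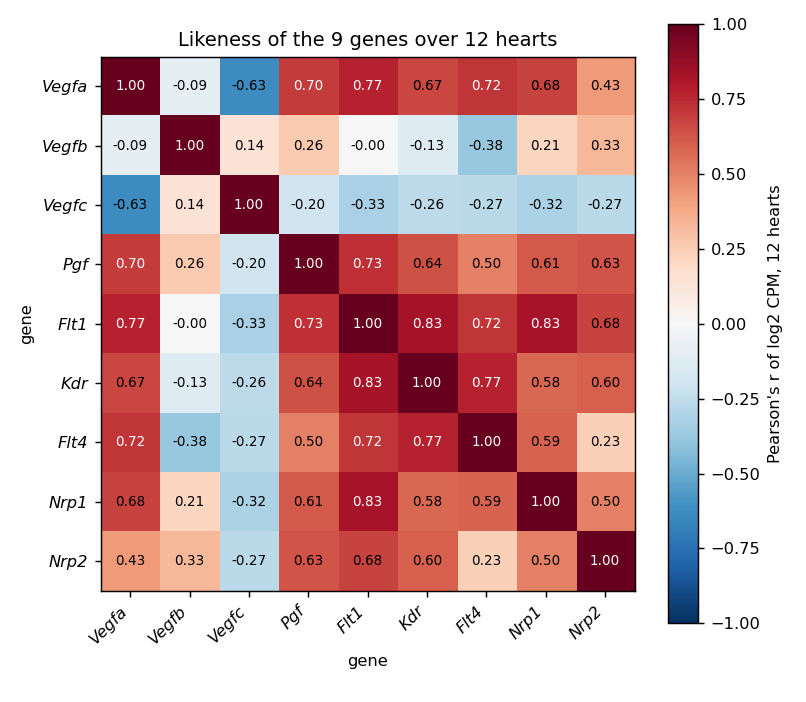
Pearson's r of log2 CPM between each pair of the 9 genes over the 12 hearts, from -1 (blue) to 1 (red). Flt1 with Kdr and Flt1 with Nrp1 are highest at 0.83, and Vegfa with Vegfc is lowest at -0.63.

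Of 12707 genes averaging 1 CPM or more, those whose level was most like that of each VEGF gene over the 12 hearts are given as a description. For Flt1 they were Shroom4 (r = 0.93), Fyn (0.93) and Sntb2 (0.92), and for Kdr they were Iqgap1 (0.93), Zbtb4 (0.92) and Shroom4 (0.91). For Flt4 they were Adam9 (0.92), Man2a1 (0.91) and Orai3 (0.90). For Vegfa they were Stc2 (0.95), Slc25a15 (0.91) and Csnk1g1 (0.88), for Vegfb Abhd17c (0.92) and Coq6 (0.92), and for Vegfc Zfp622, Scand1 and Zbed3 (0.88, 0.87 and 0.87). For Pgf they were Rab33b, Ldb2 and F11r (0.89, 0.88 and 0.87), for Nrp1 A2m, Crim1 and Ptch1 (0.91, 0.91 and 0.89), and for Nrp2 Fgf18, Ank1 and Cysltr1 (0.94, 0.93 and 0.93).

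The rest of the pathway was followed in 6 lists. Vegfd, the other lymphatic ligand, is the row Figf: it was at 2.77 to 4.17 CPM in E14.5 KO hearts, 2.56 to 4.14 in E14.5 WT hearts, 2.69 to 3.53 in E13.5 KO hearts and 3.24 to 3.80 in E13.5 WT hearts, and was called in no comparison. Of 3 genes for VEGF-C processing (Ccbe1, Adamts3, Adamts14) none was called in any comparison. Adamts3, a protease that activates VEGF-C, was -0.25 ± 0.12 in KO against WT hearts at E14.5 (adjusted p = 0.524, edgeR), and Ccbe1, its cofactor, was 0.10 ± 0.34 (adjusted p = 0.978).

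Neuropilins share their semaphorin ligands and plexin partners (12 genes, all tested) with nerve and vessel guidance. Averaged over the stages, 1 was up in KO and 1 down, against 1.42% of all genes called, with a median of 0.10. Sema3g, a semaphorin of arterial endothelium, fell: it was at 6.29, 7.01 and 10.5 CPM in E14.5 KO hearts, against 12.0, 11.3 and 12.9 CPM in E14.5 WT hearts, and at 4.24, 4.05 and 6.07 CPM in E13.5 KO hearts, against 8.95, 7.89 and 10.8 CPM in E13.5 WT hearts (-0.77 ± 0.14, adjusted p = 0.0190, edgeR). KO was below WT without overlap at both stages, as in 1.5% of all genes. Sema3b rose: it was at 18.9, 20.4 and 26.1 CPM in E14.5 KO hearts, against 12.4, 15.0 and 12.4 CPM in E14.5 WT hearts, without overlap (as 6.81% of all genes were above WT), and at 21.1, 26.4 and 23.0 CPM in E13.5 KO hearts, against 22.5, 18.1 and 18.4 CPM in E13.5 WT hearts, which overlap (averaged 0.49 ± 0.10, adjusted p = 0.0256). The call of Sema3g was lost without E13.5 KO 3 or KO 5 (adjusted p = 0.0502 and 0.0528), and that of Sema3b without any 1 of E13.5 WT 4, WT 2, KO 5 or KO 7 or E14.5 WT 8 or WT 7.2 (0.0539 to 0.0790). Sema3b was also not called without litter 3 (0.0656). At each single stage 0 of 12 were called. At an unadjusted p under 0.05 in edgeR there were 5 at E14.5 (3 higher and 2 lower in KO), against 9.59% of all genes. At E13.5 there was 1, lower in KO, against 10.3%. Between the stages Plxna3, a plexin partner of neuropilins, fell in KO hearts (-0.60 ± 0.14, adjusted p = 0.0346) and Sema3b fell in WT hearts (-0.57 ± 0.14, adjusted p = 0.0399). The call of Plxna3 was lost without any 1 of E14.5 KO 2 or KO 1 or the 3 E13.5 KO hearts (0.0812 to 0.119), and that of Sema3b without any 1 of E14.5 WT 8 or WT 7.2, E13.5 KO 7 or the 3 E13.5 WT hearts (0.0549 to 0.173).

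Below the receptors, 26 of 27 signalling genes were tested, Sh2d2a being too low. Between KO and WT none was called by edgeR in any of the 3 comparisons, and averaged over stages the smallest p-values were those of Pik3r1, a PI3-kinase subunit (-0.19 ± 0.05, adjusted p = 0.108, edgeR), and Map2k1, the kinase MEK1 (0.13 ± 0.04, adjusted p = 0.136). Pik3r1 passed with DESeq2 (-0.19, adjusted p = 0.0326) and in edgeR without E14.5 KO 1 (-0.23, adjusted p = 0.0423). Between stages the Src-family kinase Yes1 (0.33 ± 0.08, adjusted p = 0.0326) and the adaptor Nck1 (0.33 ± 0.08, adjusted p = 0.0439) rose in KO hearts, and Prkcb, a protein kinase C, fell in WT hearts (-0.54 ± 0.14, adjusted p = 0.0478). These 3 calls lay near the threshold. That of Yes1 was lost without any 1 of E14.5 KO 2 or KO 4 or the 3 E13.5 KO hearts (0.0518 to 0.121). Those of Nck1 (0.0501 to 0.135) and Prkcb (0.0578 to 0.181) were each lost without any 1 of 9 hearts, Nck1 being kept without E14.5 KO 4, WT 8 or WT 7.2 and Prkcb without any 1 of the E14.5 KO hearts.

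Of 12 endothelial genes that VEGF is known to induce, Cxcr4, a chemokine receptor, fell in KO against WT hearts averaged over stages (-0.84 ± 0.18, adjusted p = 0.0488, edgeR), and none rose. The median was 0.08, and 1.42% of all genes were called in this comparison. Cxcr4 was at 6.87, 7.90 and 13.8 CPM in E14.5 KO hearts, against 12.9, 11.4 and 15.5 CPM in E14.5 WT hearts, which overlap. It was at 4.46, 4.19 and 6.76 CPM in E13.5 KO hearts, against 13.3, 10.3 and 12.2 CPM in E13.5 WT hearts, which do not. The call was kept without E14.5 KO 1 or E13.5 KO 7 and lost without any 1 of the other 10 hearts (0.0720 to 0.122). It was also lost without the low-count filter (0.0936) and with Y-linked expression as a covariate (0.0608). Leukocytes also express Cxcr4, and without E14.5 KO 2 and E13.5 KO 5, the hearts lowest in macrophage and leukocyte markers, it was -0.69 ± 0.18 (adjusted p = 0.206). In that setting E13.5 KO 3 and KO 7 were still below all WT hearts in these markers, and the genes called over the whole set fell from 293 to 63. The part of leukocytes in the level of Cxcr4 was not tested. Between the stages Dll4, a Notch ligand of tip cells and arteries, rose in KO hearts (0.48 ± 0.11, adjusted p = 0.0373), as did Angpt2, a ligand of the Tie2 receptor (1.61 ± 0.38, adjusted p = 0.0404). Angpt2 was at 3.71, 2.01 and 7.18 CPM in E14.5 KO hearts, against 1.29, 1.58 and 1.37 CPM in E13.5 KO hearts. Both calls were lost without E14.5 KO 2 or KO 1 or any 1 of the 3 E13.5 KO hearts (Dll4 0.0799 to 0.120, Angpt2 0.0621 to 0.135), and that of Angpt2 also without any 1 of the 3 E13.5 WT hearts (0.0507 to 0.0614). With the pan-endothelial level as a covariate, which left no gene at all called in this comparison, Dll4 was 0.04 (adjusted p = 0.948) and Angpt2 0.34 (adjusted p = 0.873). In WT hearts none of the 12 was called between stages.

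Of 15 genes for oxygen sensing and hypoxia response, P4ha2, a collagen prolyl hydroxylase, rose in KO against WT hearts averaged over stages (0.47 ± 0.09, adjusted p = 0.0184, edgeR). It was at 36.0, 28.8 and 33.6 CPM in E14.5 KO hearts, against 27.2, 19.9 and 24.3 CPM in E14.5 WT hearts, and at 34.1, 39.7 and 34.3 CPM in E13.5 KO hearts, against 28.5, 26.4 and 22.9 CPM in E13.5 WT hearts. KO was above WT without overlap at both stages, as in 1.75% of all genes. The call was lost without E13.5 KO 5 or E13.5 WT 4 (0.0528 and 0.0517) and without litter 3 (0.0656). The list's median was 0.09 averaged over stages, with 10 of 15 genes above 0 and 1 called, against 1.42% of all genes. At an unadjusted p under 0.05 in edgeR, 6 of the 15 were higher in KO there and 0 lower, against 14.7% of all genes. At E14.5 there were 5 higher and 0 lower, against 9.59%. At E13.5 there was 1 higher and 1 lower, against 10.3%. Between the stages Epas1, which encodes HIF-2 alpha, rose in KO hearts (0.43 ± 0.10, adjusted p = 0.0333), and none of the 15 was called in WT hearts. Without E14.5 KO 1 or any 1 of the 3 E13.5 KO hearts the call of Epas1 was lost (0.0773 to 0.118). With the pan-endothelial level as a covariate, which left no gene at all called in this comparison, Epas1 was 0.08 (adjusted p = 0.853).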

How the data were processed

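Bulk RNA of 12 whole hearts was measured, 3 for each of 4 groups taken from the labels. The deposited values are raw counts per gene symbol, with no normalization by the authors. STAR 2.5.3a, featureCounts, DESeq and DESeq2 with GRCm38 are named in the submitters' processing notes, without role or order. Strandedness, the treatment of multi-mapping reads and the annotation are not stated. The levels of Nrp1 and Nrp2 could include reads of overlapping genes: Mir1903 shares 80 exonic bases with Nrp1 (0.818% of its exons), and Gm29083, antisense, and Gm37121 lie across Nrp2 and share 0 exonic bases.

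The analysis used edgeR 4.0.16 under R 4.3.3. Its filterByExpr step kept 20691 of 45664 genes. TMM gave the scaling, and a quasi-likelihood fit of 4 group means took in the whole set of 12 libraries, leaving 8 residual degrees of freedom, with a common biological coefficient of variation of 17.1%. The prior was estimated robustly, a choice made after seeing the data, and the alternative is given in the closing section. P-values are two-sided, with Benjamini-Hochberg adjustment across the 20691 genes in each comparison and calls under 0.05. A standard error (SE) is approximate: the size of the log2 fold change over the root of F. Levels are TMM-scaled CPM, and marker levels are the mean log2 CPM of a list. Levels per kb use GENCODE exon lengths. Library totals were 46556032 to 182545647 counts. Statistics were tested on simulated data.

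The members and lists were chosen with earlier results of these data known. All 9 members are described. Of each pathway list every called gene is named, or the 2 with the smallest p in a comparison where none was called, given here for the comparisons of most use. The likeness rule takes the 3 genes with the highest Pearson's r, leaving out the 9 members and predicted symbols. For Vegfb 1 of the 3 is not reported here. Alternatives were DESeq2 1.42.0, other scaling, no filter, fewer libraries, litter as replicate block, and covariates for Y-linked and pan-endothelial expression.

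Replicate numbers were not used to pair hearts, because litters are labelled: at E14.5, KO and WT hearts of litter 2 or 3 share a litter. Residuals of KO and WT hearts of the same litter correlated at 0.00399 on average (5 pairs) and those of different litters at -0.00501 (4 pairs). Pairs of libraries within a group differed by a chi-square per degree of freedom of 18.4 to 152, so none was counted as a copy. The labels give hearts of separate numbers, 1 library each.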

Additional observations from a re-analysis of the deposited data

How the results depend on the processing

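The 9 genes in 6 comparisons gave 54 values, recomputed 1170 times under other settings. Of these, 1138 kept their direction and side of the threshold or moved by less than 1 SE, 11 of a called gene missed the threshold, 8 of an uncalled gene passed it, 13 uncalled ones moved by more, and none of a called gene changed sign. In all 66 changed sign, none of them called. The count of VEGF genes called was 0 at E13.5 and for the interaction under every alternative. In KO against WT at E14.5 the count of 0 became 1 (Flt4) with DESeq2 and 1 with Y-linked expression as a covariate. Averaged over stages the count of 0 became 1 (Flt4) with DESeq2 and 1 with Y-linked expression as a covariate, and it was 0 to 1 with each heart left out in turn, the 1 being without E14.5 KO 4. Leaving out hearts, Flt4 averaged over stages ranged from 0.26 to 0.36, with adjusted p from 0.0270 to 0.218. Between stages in WT the count of 1 (Nrp2) became 0 with litter as replicate block and 0 without litter 3, and was 0 to 1 with each heart left out, while Nrp2 stayed between 0.37 and 0.56 (adjusted p 0.0195 to 0.104). Between stages in KO the count of 1 (Nrp2) became 3 with DESeq2 (Nrp2, Flt1 and Pgf), 0 with the pan-endothelial covariate, 0 without E13.5 KO 5 and E14.5 KO 2, and 0 to 2 with each heart left out, while Nrp2 stayed between 0.43 and 0.56 (adjusted p 0.0102 to 0.0829). Of 17 calls among the listed pathway, mural and lymphatic genes, 0 were kept without each heart in turn. With litter as replicate block Sema3b and Prkcb in WT (adjusted p = 0.0564 and 0.111) and Plxna3, Nck1, Yes1, Dll4, Angpt2 and Epas1 in KO (0.0523 to 0.0971) were lost between stages, and without E13.5 KO 5 and E14.5 KO 2 so were all 4 between KO and WT (0.0631 to 0.206). Without litter 3 Sema3b and Prkcb in WT (0.103 and 0.132) were also lost between stages. So were Plxna3, Nck1, Dll4, Angpt2 and Epas1 in KO (0.0527 to 0.112). The replicate block changed no other call of the 9 genes, and the cause of these changes was not tested.

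Counts over all genes depended more on the setting. At E13.5 the 22 genes called became 306 with DESeq2, 40 without a filter, 95 with those libraries alone, 60 with the litter block, 9 and 0 with the Y-linked and pan-endothelial covariates, 71 without litter 3, and 2 to 69 with each heart left out. At E14.5 the 46 became 337, 77, 2 and 92 with the first 4 of these, 9 with the pan-endothelial covariate, 10 without E13.5 KO 5 and E14.5 KO 2, and 10 to 107 with each heart left out. Averaged over stages the 293 became 933 with DESeq2, 63 without those 2 hearts, and 125 to 483 with each heart left out. For the interaction the 0 became 2 with DESeq2, and 746 genes had an unadjusted p under 0.05 in edgeR. Between stages in WT the 836 became 2129 with DESeq2, 299 with the litter block, 95 without litter 3, 474 without those 2 hearts, and 8 to 1081 with each heart left out. In KO the 774 became 1832, 289 with the libraries compared alone, 332, 396 and 0 with the block and the 2 covariates, 130 without those 2 hearts, and 66 to 1076. The prior without robust estimation, added after seeing the data, gave 16, 50, 322, 0, 766 and 779 and changed no call of the 9 genes.

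With 3 hearts a group, the 95% intervals of KO over WT at 1 stage reach 0.183 to 0.296 log2 units to either side of the value for these genes, before any adjustment for the number of genes. Gene counts pool isoforms, and whole hearts pool cell types.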

Other observations

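The balance of the neuropilins differed between E13.5 and E14.5 hearts, which are also of different litters. The ratio of Nrp1 to Nrp2 in CPM, which is comparable between hearts but not a ratio of molecules, was 5.83, 4.59 and 4.68 in E14.5 KO hearts, against 6.04, 7.02 and 6.49 in E13.5 KO hearts. It was 4.50, 5.11 and 4.86 in E14.5 WT hearts, against 6.76, 5.90 and 7.14 in E13.5 WT hearts. All E14.5 hearts lay below all E13.5 hearts, the closest being E14.5 KO 2 (5.83) and E13.5 WT 4 (5.90), and the ratio itself was not tested. Between the stages Nrp1 was 0.13 in KO and 0.04 in WT on the log2 scale, so the ratio largely restates the rise of Nrp2.

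A term for Y-linked expression (5 hearts with, 7 without) was added to the fit after seeing the data. In hearts with Y-linked expression 7 of the 9 genes were lower, with a median of -0.15 log2 units against 0.01 over all genes, and 4 had an unadjusted p under 0.05, against 4.21% of all genes. Pan-endothelial markers lay the same way, with 14 of 20 below 0, a median of -0.07, and 2 at an unadjusted p under 0.05. Their part in the values of the 9 genes was not tested. None had an adjusted p under 0.05 in edgeR, where 17 of 20691 genes (0.0822%) did. Flt4 was lowest (-0.27 ± 0.05, adjusted p = 0.0754), followed by Flt1 (-0.20 ± 0.06, adjusted p = 0.918), Vegfa (-0.18 ± 0.09, adjusted p = 1.00), Kdr (-0.16 ± 0.07, adjusted p = 1.00) and Nrp1 (-0.15 ± 0.05, adjusted p = 1.00). DESeq2 was not run on this term.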
